A study of Mus musculus with 12 samples.

Results

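Non-cycling antibody-secreting cells whose heavy-chain transcripts were mostly of the IgG class are described here. They were chosen from the gene expression libraries by a rule on their own transcripts. A barcode was kept with at least 1000 UMIs (unique molecular identifiers, counts of captured transcripts) outside immunoglobulin genes, under 10% mitochondrial UMIs, at least 50% of its light-chain V UMIs in 1 V gene, and no UMI of 6 cell cycle genes (Mki67, Top2a, Cdk1, Birc5, Ube2c, Ccnb2). It was called IgG when Ighg1, Ighg2b, Ighg2c and Ighg3 together held at least 60% of its heavy-chain constant UMIs. Of 39949 barcodes listed as cells, 4965 were kept and 469 of these were IgG. The other 4496 kept cells were 4068 IgM cells, 275 IgA cells and 153 cells with no class at 60%, and they served as the comparison within the same library. Because the rule used them, the levels of heavy-chain constant genes, of the 6 cell cycle genes and of the leading light-chain gene are given as description, with no test.

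The 6 gene expression libraries came from female and male Prdm1-eYFP mice on the C57BL/6 background, aged 3 months, with no treatment named in the labels. In them eYFP, a yellow fluorescent protein, reports expression of Prdm1, which encodes the factor Blimp-1. For each sex, cells of bone marrow, spleen and thymus were sorted from pools of 3 mice by high CD138 and eYFP, without IgD or CD90.2 and whether or not B220 was present. There was 1 such library per sex and tissue, beside 1 library of B cell receptor contigs (VDJ), so a group of 1 sex and tissue has no replicate. Whether 1 pool of mice served all tissues of a sex is not given in the labels. Every test below therefore has these pooled libraries as its units, and not mice.

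IgG is the main antibody class made after switching from IgM, in which the constant gene behind the rearranged V gene is exchanged for one further downstream. In mice on this background the IgG subclasses are encoded by Ighg3, Ighg1, Ighg2b and Ighg2c. Antibody-secreting cells fold and glycosylate antibody in the endoplasmic reticulum under the control of Xbp1, and they survive through signals such as APRIL acting on BCMA, the product of Tnfrsf17. J chain joins IgM and IgA into polymers and is not part of secreted IgG.

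The 4 subclass genes are close copies of one another, which limits how surely short reads can be given to one of them. On the GRCm38 assembly all lie on the minus strand of chromosome 12, Ighg2c at 113285325 to 113288932, Ighg2b at 113302965 to 113307933, Ighg1 at 113325240 to 113330523 and Ighg3 at 113356224 to 113361232. The first 80 bases of each constant transcript (GENCODE M21), where a 5' library reads out of the V region, are shown because the subclass call rests on such differences. Capitals mark bases that differ from Ighg2b.
Ighg2b: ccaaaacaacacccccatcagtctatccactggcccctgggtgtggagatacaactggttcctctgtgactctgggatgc
Ighg2c: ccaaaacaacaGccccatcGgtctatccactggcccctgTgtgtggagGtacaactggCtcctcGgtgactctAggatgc
Ighg1: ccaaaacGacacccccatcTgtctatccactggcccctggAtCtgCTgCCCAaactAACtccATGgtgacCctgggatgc
Ighg3: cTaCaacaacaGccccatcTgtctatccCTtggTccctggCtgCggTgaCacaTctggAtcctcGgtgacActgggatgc
Ighg2c differed from Ighg2b at 7 of these 80 positions, Ighg3 at 15 and Ighg1 at 17. Over the first 200 bases, Ighg2b and Ighg2c were 90.5% identical and Ighg1 and Ighg3 76.5%, the most and the least alike of the 6 pairs.

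The libraries held between 1367972 UMIs (female thymus) and 85749785 UMIs (female spleen), over 752 to 15576 barcodes. Of the 469 IgG cells, 32 had a barcode that also occurred in another gene expression library. By library these were 5 of 53 in female bone marrow, 2 of 32 in male bone marrow, 8 of 277 in female spleen, 7 of 71 in male spleen, 4 of 11 in female thymus and 6 of 25 in male thymus. The VDJ libraries went against their sex labels: the one labelled male bone marrow shared 1046 of its 1049 barcodes with the female bone marrow expression library and 20 with the male one, and the same exchange held in spleen and thymus. The match was weaker in thymus, where the VDJ library labelled male shared 333 of its 667 barcodes (49.9%) with the female expression library and the one labelled female 706 of 917 (77.0%) with the male one. Each VDJ library was therefore joined to the expression library of the same tissue that shares its barcodes, and the sex of a cell is that of its expression library. In the IgG cells, Xist was at 1100, 790 and 1395 CPM (UMI counts scaled to the TMM-adjusted total of UMIs outside immunoglobulin genes) in the libraries labelled female and at 0 in all 3 labelled male, while Ddx3y had 50.5, 93.2 and 111 CPM in those labelled male and 0 in those labelled female.

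IgG cells were a minority in every library. They made up 53 of 810 kept cells in female bone marrow (6.54%, 95% exact Clopper-Pearson interval 4.94 to 8.47%) and 32 of 1064 in male bone marrow (3.01%, 2.07 to 4.22%). In spleen they were 277 of 1795 female cells (15.4%, 13.8 to 17.2%) and 71 of 1020 male cells (6.96%, 5.48 to 8.70%). In thymus they were 11 of 67 female cells (16.4%, 8.49 to 27.5%) and 25 of 209 male cells (11.96%, 7.89 to 17.1%). The share was higher in the female library of each tissue. The intervals cover counting error only, not differences between pools, so they cannot be used to compare the sexes. Over the 3 tissues the share was 12.8% ± 5.44 (SD, n = 3) in females and 7.31% ± 4.49 (SD, n = 3) in males, a difference of 5.49 percentage points. The rule sets this share, so it is given as description, with no test of the sexes.

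Ighg2b was the leading subclass gene in 217 of the 469 IgG cells (46.3%, 41.7 to 50.9%), Ighg2c in 148 (31.6%), Ighg3 in 70 (14.9%) and Ighg1 in 34 (7.25%). Female spleen gave 277 of the 469 cells. The interval treats all cells as independent, which cells of the same clone are not. Of the 34 Ighg1 cells, 33 were in spleen, 27 of them in the female and 6 in the male library, and 1 was in female bone marrow. Ighg2b led in 62.3% of IgG cells in female bone marrow, 34.4% in male bone marrow, 44.4% in female spleen, 42.3% in male spleen, 81.8% in female thymus and 44% in male thymus. Ighg3 led in 22.6%, 40.6%, 11.2%, 15.5%, 18.2% and 4% of them in the same order. Ighg3 was thus most frequent in male bone marrow, where 13 of 32 cells carried it, and least in male thymus, where it was 1 of 25. Of these cells in male bone marrow, 3 shared a heavy-chain CDR3 with IGHV1-36 and 3 shared another with IGHV1-72. In female bone marrow 16 of the Ighg2b cells were of the IGHV1-4 clone described below. In male thymus Ighg2c led in more cells than Ighg2b. Female thymus held 9 Ighg2b cells, 2 Ighg3 cells and no Ighg2c or Ighg1 cell, a count of 11 in which few subclasses can be resolved.

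**Figure D1:**
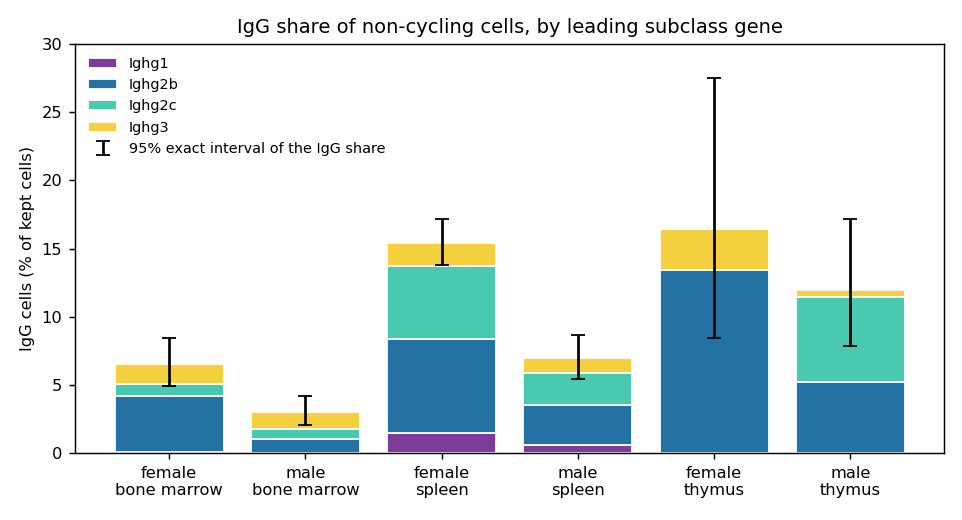
The bars give IgG cells as a percentage of the kept non-cycling cells of each library, stacked by leading subclass gene, and the lines give the 95% exact interval of the whole IgG share. The share ranges from 3.01% in male bone marrow to 16.4% in female thymus, and Ighg1 cells are seen almost wholly in spleen.

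Over the libraries, the leading gene held a median of 96.5 to 100% of the Ighg UMIs of a cell. The median share of heavy-chain constant UMIs in Ighg genes was 83.1% in female bone marrow, 83.4% in male bone marrow, 79.3% in female spleen, 76.7% in male spleen, 95.7% in female thymus and 93.8% in male thymus. Most of the remainder was Ighm, at medians of 13.8%, 16.0%, 18.7%, 22.3%, 3.68% and 6.25% in the same order, so the Ighm share of an IgG cell was lowest in the thymus libraries. Whether these Ighm UMIs were transcribed by the cells or came from free RNA was not tested. Just inside the threshold, 98 cells lay between 60 and 70% IgG (medians of 229.5 heavy-chain UMIs and 67.0% of light-chain V UMIs in the leading gene), and just outside it 78 cells lay between 50 and 60% (181 UMIs and 62.8%).

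The label was checked against marker genes and against the contigs. All 8 markers of antibody-secreting cells (Sdc1, Prdm1, Xbp1, Irf4, Jchain, Mzb1, Tnfrsf17, Slamf7) were present in the IgG sums, which totalled 47606 to 94697 CPM against 77166 to 129625 CPM in the other kept cells, a sum that Jchain dominates. T cell markers reached 0 to 152 CPM in IgG sums against 2.02 to 44.3 CPM in the others, both upper values being those of female thymus (5 and 6 UMIs), and neutrophil markers were at 0 in the 4 IgG sums of spleen and thymus but not in bone marrow, where female IgG cells had 86.4 CPM against 98.8 CPM in the others and male IgG cells 145 CPM against 94.5 CPM. Macrophage markers were at 17.2 to 61.0 CPM in IgG sums against 7.39 to 105 CPM, and erythroid markers at 0 to 52.6 CPM against 0 to 28.0 CPM, highest in the IgG cells of male bone marrow. A heavy-chain contig was found for 338 of the 469 IgG cells (72.1%). Its constant gene was the same subclass in 329 of these 338, including 19 of 19 Ighg1 cells, 160 of 165 Ighg2b cells, 95 of 99 Ighg2c cells and 55 of 55 Ighg3 cells, while 4 contigs were IGHM and 1 was IGHA. The leading light-chain V gene was the same in 301 of 312 cells with both.

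IgG cells carried more Cxcr3, Pld4 and MHC class II transcripts than the other kept cells of the same libraries, and less Tnfrsf17, Bcl2, Lag3 and Txndc5. Most of the other cells were IgM, and for Lag3 and further genes named below the difference was not found against IgA cells alone. UMIs were summed over the IgG cells and over the other cells of each library and tested with edgeR's quasi-likelihood test with the library as a block. The fit left 5 residual degrees of freedom, while the later test by tissue left 3 and those of tissue and sex within IgG cells 2. Spread was estimated partly from all genes together. A p-value or SE of a gene can therefore be smaller than its own spread between libraries would give. Of 7150 genes tested, 837 passed a Benjamini-Hochberg adjusted p of 0.05, which is 11.7% of all genes, 407 of them higher in IgG cells (5.69%) and 430 lower (6.01%). DESeq2 called 447 genes, 442 of them among the 837. Without the female spleen library, which holds 277 of the 469 IgG cells, edgeR called 396 genes, and without the library as a block it called 125, all of them among the 837. All adjusted p-values that follow are from the edgeR test unless another tool is named.

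The chemokine receptor gene Cxcr3, which guides cells toward interferon-induced chemokines, lies on chromosome X at 101731535 to 101734269 (GRCm38, minus strand). It was at 103, 250, 306, 206, 72.5 and 181 CPM in the IgG sums of female bone marrow, male bone marrow, female spleen, male spleen, female thymus and male thymus, against 30.4, 30.6, 53.2, 42.7, 56.2 and 24.3 CPM in the other cells. Every IgG value lay above every value of the other cells, and the closest pair was in female thymus. The log2 fold change was 2.44 (SE 0.14, adjusted p = 6.98e-39), and it stayed between 1.83 and 2.56 with an adjusted p under 0.05 in all 17 alternative settings. Pld4, which encodes an endolysosomal exonuclease, was at 274, 257, 214, 267, 314 and 191 CPM in IgG cells in the same order, against 55.8, 79.96, 68.0, 103, 63.3 and 65.3 CPM, again without overlap (log2 fold change 1.71, SE 0.12, adjusted p = 1.07e-27). Siglecg, an inhibitory receptor of B cells, was higher in 6 of 6 libraries by 1.73 (adjusted p = 3.59e-11), but among cells with at least 90% IgG the difference was 1.15 with an adjusted p of 0.27.

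Other genes of the largest positive differences were rarer. Fgd2, an exchange factor for Cdc42, was at 20.7 to 50.5 CPM in IgG cells and 5.43 to 9.90 CPM in the others (log2 fold change 2.05, adjusted p = 4.05e-07). Ceacam1, an adhesion molecule, was higher in 5 of 6 libraries (2.13, adjusted p = 0.000467, on 98 UMIs in all). The rule for named genes also gave Zfyve28, Slc16a5, Faxc and Srms, with log2 fold changes of 1.62, 1.60, 1.59 and 1.54, and the predicted genes Gm8890, Gm37065 and Gm5535, whose identity as separate genes is uncertain.

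**Figure D2:**
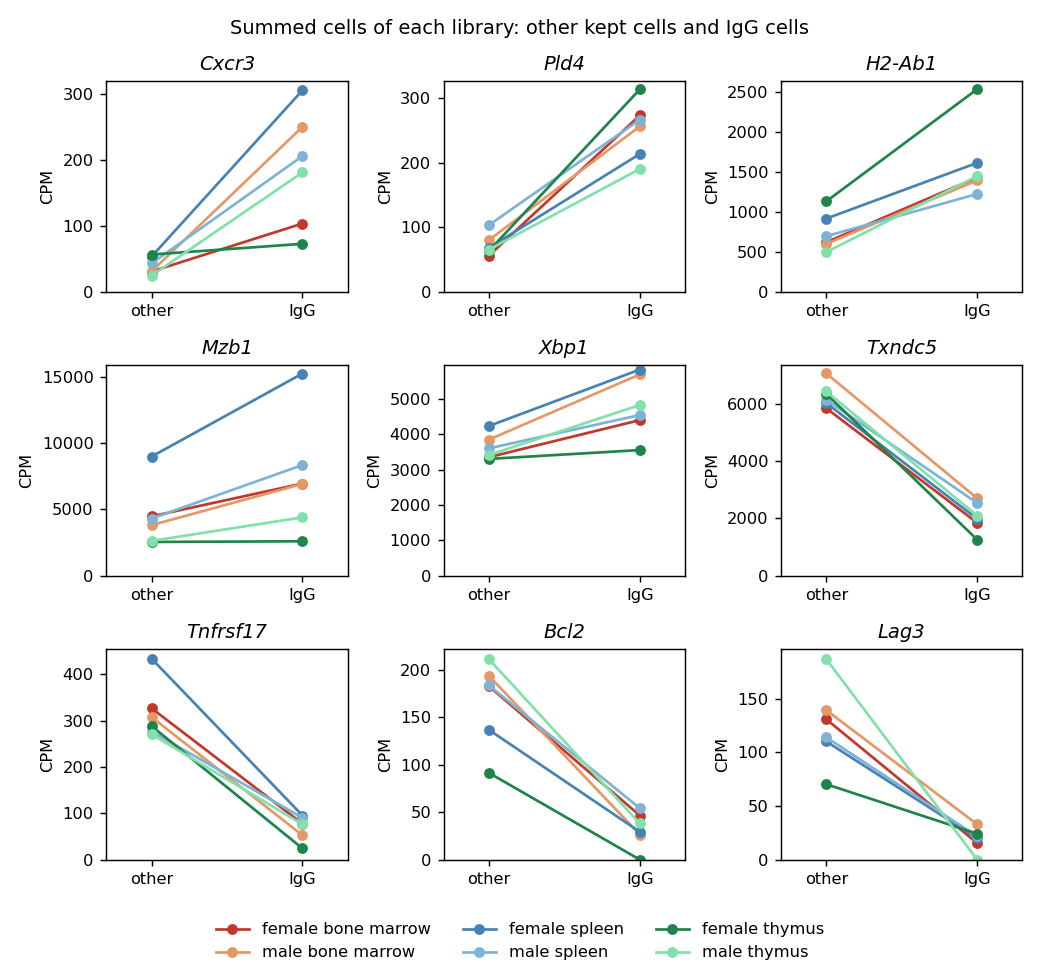
Each panel plots CPM of a gene in the sums of other kept cells and of IgG cells, with a line joining the values of each library and every axis starting at 0. Cxcr3, Pld4, H2-Ab1, Mzb1 and Xbp1 rise toward IgG in 6 of 6 libraries, and Txndc5, Tnfrsf17, Bcl2 and Lag3 fall in 6 of 6.

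Genes of antibody assembly did not move as a block. Of 10 genes of J chain and immunoglobulin assembly, 6 rose (Mzb1, Erp44, Hspa5, Hsp90b1, Pdia4, Ppib) and 2 fell (Jchain, Txndc5), with a median log2 fold change of 0.37 beside 0.00 over all genes tested. Jchain was at 59490, 57250, 93190, 73380, 29270 and 52320 CPM in IgG cells of the 6 libraries in the order above, against 119000, 127500, 137600, 69680, 64000 and 73510 CPM. It was lower in 5 of 6 libraries and slightly higher in male spleen (log2 fold change -0.71, SE 0.09, adjusted p = 1.15e-11). Among cells with at least 90% IgG the Jchain difference was -0.30 (adjusted p = 0.21), and without the library block the adjusted p was 0.28.

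Txndc5, a disulfide isomerase of the endoplasmic reticulum, fell in 6 of 6 libraries. Its level was 1849, 2705, 1985, 2541, 1257 and 2096 CPM in IgG cells against 5856, 7075, 6039, 6153, 6360 and 6445 CPM in the others. The ranges did not overlap, and the log2 fold change of -1.60 (SE 0.10, adjusted p = 2.05e-36) kept an adjusted p under 0.05 in all 17 alternatives. Mzb1, a chaperone of antibody assembly, rose in 6 of 6 libraries, from 4468 to 6937 CPM in female bone marrow and from 8970 to 15230 CPM in female spleen, but only from 2537 to 2586 CPM in female thymus (0.70, adjusted p = 1.75e-10). Hsp90b1, the chaperone GRP94, rose by 0.71 (adjusted p = 3.5e-11), Ppib by 0.69 and Erp44 by 0.68. Pdia4 lost its call without male spleen (0.24, adjusted p = 0.125) and Hspa5 without male thymus (0.26, adjusted p = 0.109). Among cells with at least 90% IgG, 3 of the 10 rose and 1 fell, with Pdia4 at 0.0063, Hspa5 at 0.028 and Erp44 at 0.43 (adjusted p = 0.991, 0.948 and 0.0854), and without the library block none rose and 1 fell.

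Of 23 tested genes of endoplasmic reticulum stress and secretion, 11 rose and 3 fell (Herpud1, Ddit3, Ppp1r15a), with a median of 0.30. Ssr4, a subunit of the translocon-associated complex, was higher in 6 of 6 libraries (0.82, adjusted p = 2.72e-13), as were the stress-induced folding factors Creld2 (0.61) and Manf (0.61). For Creld2 the difference was called as depending on the tissue. Ddit3, the pro-apoptotic factor CHOP, fell by 1.07 (adjusted p = 2.67e-06) and Herpud1 by 0.48 (adjusted p = 6.88e-05). Ppp1r15a lost its call without male bone marrow, female spleen or male spleen (adjusted p = 0.0509, 0.635 and 0.0652). The list changed with the settings: without cells whose barcode occurs in another library 3 rose and 3 fell, among cells with at least 90% IgG 7 rose and 1 fell, and without the library block none passed. The share of all UMIs that fell in immunoglobulin genes holds the heavy and light chain genes of the rule and so is given as a description. It had medians of 47.5, 57.3, 59.7, 57.9, 47.6 and 46.3% in IgG cells of the 6 libraries against 45.9, 53.7, 56.0, 53.3, 40.4 and 44.6% in the others. It was higher than in the other kept cells in 6 of 6 libraries, by 3.70 percentage points ± 2.07 (SD, n = 6). IgA cells alone had higher medians than IgG cells, at 57.7, 60.2, 65.6, 59.3, 59.6 and 48.3% in the same order. Of the 23 genes above, 5 were higher in IgG than in IgA cells and 0 lower. Over all 4969 genes of that comparison 4.27% were higher and 3.16% lower. The part of the immunoglobulin share in the gene differences was not tested.

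Among 14 genes of N-glycosylation, 5 rose (Stt3a, Ddost, Rpn1, Rpn2, Fut8) and 2 fell (Stt3b, Man1a), with a median of 0.28. The 2 catalytic subunits of the oligosaccharyltransferase went opposite ways. Stt3b was at 108, 105, 119, 224, 72.5 and 162 CPM in IgG cells against 337, 556, 210, 378, 337 and 459 CPM (log2 fold change -1.24, SE 0.13, adjusted p = 3.03e-16), lower in every library and in all 17 alternatives. The size of its difference was called as depending on the tissue. Against IgA cells alone Stt3b was not called. Stt3a rose by 0.36 (adjusted p = 0.00828) in 5 of 6 libraries, but it lost the call without female spleen (0.34, adjusted p = 0.0664) and was at -0.07 among cells with at least 90% IgG. Fut8, which adds the core fucose of the IgG glycan, was higher in 6 of 6 libraries by 0.59 (adjusted p = 2.48e-07). Its level ran from 737 to 1022 CPM in IgG cells and from 435 to 647 CPM in the others. Man1a lost its call without male bone marrow (adjusted p = 0.0755), Rpn2 without either bone marrow library (0.0552 and 0.0755), and Rpn1 without any library but female thymus (0.0619 to 0.176). None of the 5 higher genes passed among cells with at least 90% IgG, where Fut8 was at 0.29 (adjusted p = 0.22), Ddost at 0.27 (0.263), Rpn2 at 0.11 (0.724) and Rpn1 at -0.07 (0.848), while 3 genes of the list were lower. Without the library block none was higher and 1 was lower.

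Of 14 transcription factors of plasma cells, 3 rose (Xbp1, Creb3l2, Pou2f2) and 3 fell (Irf4, Pou2af1, Mef2c), and the median was -0.12. Xbp1, the driver of the secretory programme, was at 4401, 5694, 5832, 4545, 3553 and 4829 CPM in IgG cells and 3352, 3849, 4235, 3602, 3303 and 3414 CPM in the others (0.40, adjusted p = 3.11e-04). Pou2af1, a coactivator of immunoglobulin genes, fell by 0.75 (adjusted p = 6.44e-09) and Irf4 by 0.43 (adjusted p = 0.00113), both lower in 6 of 6 libraries. Against IgM cells alone and IgA cells alone, Xbp1 and Mef2c passed in neither comparison. Creb3l2 and Pou2af1 passed against IgM only, and Pou2f2 and Irf4 against both. Without the library block none of the 6 passed, with adjusted p-values of 0.113 for Pou2af1, 0.358 for Irf4, 0.399 for Xbp1 and 0.305 to 0.631 for the others. Among cells with at least 90% IgG, Creb3l2 was at 0.022 (adjusted p = 0.972) and Pou2f2 at 0.21 (0.724). Prdm1, whose reporter was used in the sort, was at 495 to 1085 CPM in IgG cells and 818 to 1129 CPM in the others and did not pass the test (-0.19, adjusted p = 0.244). Creb3l2 lost its call without male bone marrow or male spleen (adjusted p = 0.0986 and 0.116). Pou2f2 lost it without female bone marrow, female spleen or male spleen (0.0632, 0.0584 and 0.125), and Mef2c without female bone marrow, male bone marrow or female thymus (0.139, 0.114 and 0.11).

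Of 25 tested survival and surface genes, 4 rose (Epcam, Slpi, Bcl2l1, Ly6c2) and 5 fell (Tnfrsf17, Il5ra, Tigit, Bcl2, Slc3a2). Tnfrsf17, the receptor BCMA (chromosome 16, 11313812 to 11320074, plus strand), was at 77.5, 52.7, 95.2, 90.3, 24.2 and 76.2 CPM in IgG cells and 327, 308, 434, 277, 288 and 270 CPM in the others. The highest IgG value lay below the lowest value of the other cells by a wide margin (log2 fold change -2.09, SE 0.14, adjusted p = 1.13e-30). Bcl2, the anti-apoptotic gene on chromosome 1 (106538178 to 106714274, minus strand), was at 46.5, 26.3, 29.2, 54.2, 0 and 38.1 CPM against 183, 194, 137, 183, 91.4 and 211 CPM, without overlap (-2.19, SE 0.18, adjusted p = 1.06e-23).

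Bcl2l1, which encodes the related protein Bcl-xL, moved the other way at low levels. It was at 20.7, 13.2, 21.7, 25.3, 48.3 and 38.1 CPM in IgG cells and 5.80, 8.196, 10.6, 9.34, 0 and 4.56 CPM in the others (1.38, adjusted p = 0.00222), while without female spleen the log2 fold change was 1.72 with an adjusted p of 0.0557. Il5ra, the receptor for interleukin-5, fell by 2.22 (adjusted p = 1.39e-08). Slc3a2, the heavy chain of amino acid transporters, fell from between 900 and 2553 CPM in the other cells to between 475 and 1097 CPM (-1.38, adjusted p = 5.78e-27). Tigit, an inhibitory receptor gene, did not pass without female spleen (-0.42, adjusted p = 0.418). Without the library block Epcam, Slpi, Ly6c2 and Tigit lost their calls (adjusted p = 0.362, 0.125, 0.598 and 0.684). Sdc1, which encodes CD138, and the bone marrow homing receptor gene Cxcr4 did not pass (0.17 with an adjusted p of 0.348, and 0.32 with an adjusted p of 0.365).

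Of 7 tested MHC class II genes 5 rose, none fell, and the median was 0.55. H2-Ab1 was at 1431, 1395, 1614, 1224, 2538 and 1448 CPM in IgG cells against 618.2, 598, 915, 694, 1131 and 495 CPM, and no value of the groups overlapped (1.10, SE 0.09, adjusted p = 1.76e-21). H2-Eb1 rose by 1.01 (adjusted p = 3.68e-18) and H2-Aa by 0.96 (adjusted p = 2.08e-15), each in 6 of 6 libraries, though without the library block H2-Aa had an adjusted p of 0.0987 and Cd74 of 0.265. Both were among the genes whose IgG to other difference depended on the tissue (adjusted p = 0.00465 and 0.0487). H2-Aa was at 2900 against 703 CPM in female thymus and 781 against 311 CPM in male thymus, and its test by tissue had an adjusted p of 0.857 without female thymus and of 0.0641 to 0.0987 with 1 library of bone marrow or spleen left out. For Cd74 the adjusted p was 0.296 to 0.999 with any library but male thymus left out. The chaperone genes Cd74 (0.55, adjusted p = 1.89e-07) and H2-DMa (0.55, adjusted p = 0.00621) rose less, and H2-DMa lost its call without female bone marrow (0.42, adjusted p = 0.0832), without the library block (0.196) and among cells with at least 90% IgG (0.267). B cells express these genes too. Ms4a1, which encodes CD20 and is lost in plasma cells, was at 67.2, 52.7, 104, 83.0, 24.2 and 133 CPM in IgG cells and 93.9, 89.6, 99.8, 80.1, 35.1 and 97.2 CPM in the others and did not pass (-0.06, adjusted p = 0.891). Of 13 tested B cell identity genes, 3 rose (Cd79b, Cd52, Cd24a) and 2 fell (Blk, Cd83), with Blk, a B cell tyrosine kinase, at -1.68 (adjusted p = 9.32e-11). Cd24a lost its call without male bone marrow, female spleen or male spleen (adjusted p = 0.164, 0.203 and 0.287), and without the library block Cd79b, Cd52 and Cd24a all did (0.305, 0.546 and 0.599). The part of any B cells remaining among the IgG cells was not tested.

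Of 12 MHC class I genes, 3 rose (H2-T23, B2m, Psmb8) and none fell, with a median of 0.21. B2m, the light chain of class I molecules, was 0.50 higher (adjusted p = 2.58e-06) in 6 of 6 libraries, while H2-T23 lost its call without female bone marrow, male bone marrow, male spleen or male thymus (adjusted p = 0.12, 0.0958, 0.184 and 0.182). Without the library block none of the 3 passed, with adjusted p-values of 0.741 for H2-T23, 0.456 for B2m and 0.237 for Psmb8. Of 18 tested interferon response genes, 4 rose (Isg20, Bst2, Zbp1, Trim30a) and none fell, with a median of 0.14. Isg20 was 0.72 higher and Bst2 0.68, each in 5 of 6 libraries, with female thymus the exception for both. Zbp1 lost its call without female spleen (0.51, adjusted p = 0.0735), as did Trim30a (0.46, adjusted p = 0.232), which was also lost without female bone marrow (0.124) or male spleen (0.0505) and was at 0.07 among cells with at least 90% IgG (adjusted p = 0.943). None of the 4 passed without the library block (adjusted p = 0.303 for Isg20, 0.299 for Bst2, 0.267 for Zbp1 and 0.849 for Trim30a).

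Of 6 tested regulatory and checkpoint genes 4 fell (Lag3, Cd200, Tgfb1, Ctla4), none rose, and the median was -0.86. Against IgA cells alone Cd200 and Ctla4 passed, while Lag3 (-0.49, adjusted p = 0.532) and Tgfb1 (-0.38, adjusted p = 0.489) did not. Lag3, an inhibitory receptor that binds MHC class II, was at 15.5, 32.9, 20.0, 21.7, 24.2 and 0 CPM in IgG cells and 131, 139, 110, 114, 70.3 and 187 CPM in the others. Every IgG value was below every value of the other cells (-2.58, SE 0.21, adjusted p = 1.55e-23). The gene lies on chromosome 6 at 124904361 to 124911705 (minus strand). Cd200, a ligand that restrains myeloid cells, was at 0 to 19.8 CPM against 29.7 to 66.6 CPM (-2.81, adjusted p = 1.55e-12), on 11 UMIs in all IgG cells. Without female spleen, Tgfb1 (-0.73, adjusted p = 0.0895) and Ctla4 (-0.98, adjusted p = 0.1) no longer passed. Among cells with at least 90% IgG they were at -0.38 and -0.93 (adjusted p = 0.619 and 0.308), and without the library block they had adjusted p-values of 0.12 and 0.268.

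Of 11 tested genes of metabolism and amino acid transport, 5 were lower (Slc7a5, Sesn1, Asns, Chac1, Cd36) and none higher, with a median of -0.24. Asns, the asparagine synthetase, was at 62.0, 46.1, 49.3, 28.9, 0 and 9.53 CPM in IgG cells against 129, 138, 143, 137, 134 and 88.1 CPM (-1.66, adjusted p = 1.64e-15). Sesn1, a sensor of leucine, fell by 1.66 as well (adjusted p = 1.02e-13), and both passed in all 17 alternatives. Slc7a5, the light-chain partner of Slc3a2, fell by 0.84 (adjusted p = 3.52e-07) in 6 of 6 libraries, but without the library block it did not pass (-0.82, adjusted p = 0.116). Chac1 lost its call among cells with at least 90% IgG (-1.36, adjusted p = 0.0904). Cd36 was the weakest of the 5, lower in 3 of 6 libraries, and its call was lost without female bone marrow (adjusted p = 0.0646) or male spleen (adjusted p = 0.156).

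Several of the largest negative differences lay outside the lists above. Ptpn6, the phosphatase SHP-1, was at 26.3 to 66.7 CPM in IgG cells and 134 to 302 CPM in the others (-2.38, adjusted p = 2.15e-28). Atf5, a factor of the amino acid response, fell by 2.31 (adjusted p = 1.67e-21) and the histone deacetylase gene Hdac9 by 3.13 (adjusted p = 3.31e-22). Cox6a2, a muscle-type subunit of cytochrome oxidase, was detected by 7 UMIs in all IgG cells and by 835 in the others (-3.70, adjusted p = 4.59e-17), of which 828 were in IgM cells and 4 in IgA cells, and it did not pass against IgA (-0.13, adjusted p = 0.952). It stood in a list of markers of plasmacytoid dendritic cells, of which 4 were tested, Bst2 rose, Cox6a2 fell and the median was -0.06. Akap6, Foxp2 and Gm26531 also fell, with 2, 3 and 3 UMIs in the IgG cells, too few to give a ratio, and Foxp2 lost its call without female bone marrow (adjusted p = 0.09). The remaining genes named by rule were Bspry (-2.55), Stom (-2.34) and Ache (-2.31).

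Genes of the remaining lists moved both ways or in small numbers. Among 13 tested homing and adhesion genes, 4 rose (Cxcr3, Selplg, Itga4, Itgb2) and Ccr10 fell, and without female spleen Ccr10 no longer passed (-0.52, adjusted p = 0.538). Itga4, the alpha chain of the integrins VLA-4 and LPAM, rose by 0.55 and Itgb2 by 0.65, but among cells with at least 90% IgG they were at 0.28 and 0.57 and did not pass (adjusted p = 0.384 and 0.0639). Selplg lost its call without male bone marrow, female spleen or male spleen (adjusted p = 0.115, 0.202 and 0.45). Without the library block Itga4, Itgb2, Selplg and Ccr10 all lost their calls (0.296, 0.103, 0.602 and 0.476). The list of class switching and T-bet genes had 10 tested members, none higher and 2 lower, Irf8 (-0.86) and Pdcd1lg2 (-2.08). Of 6 tested Fc receptor genes Fcrla rose and Fcer1g fell, though Fcrla did not pass without female bone marrow, female spleen or male spleen (adjusted p = 0.0615, 0.142 and 0.11). Of 11 immediate early genes 2 rose and 3 fell, of 9 genes associated with IgA 2 rose and 2 fell, and of 6 genes associated with B-1 cells 2 rose and 1 fell. Without the library block Jund, Btg2, Junb and Ier2 of the first list lost their calls (adjusted p = 0.227, 0.103, 0.735 and 0.41). So did Glipr1, Ltb and Tgfbr2 of the second (0.667, 0.674 and 0.0813) and Spn, Lgals1 and Ctla4 of the third (0.0512, 0.661 and 0.268). Among cells with at least 90% IgG, Spn, Lgals1 and Ctla4 were lost as well (0.214, 0.201 and 0.308), as were Junb, Glipr1 and Tgfbr2 (0.353, 0.858 and 0.111). None of 3 tested neutrophil markers passed, of 2 macrophage markers Apoe fell (-1.26), and without female spleen Apoe did not pass (-0.30, adjusted p = 0.593). T cell and erythroid markers were too low to be tested.

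**Figure D3:**
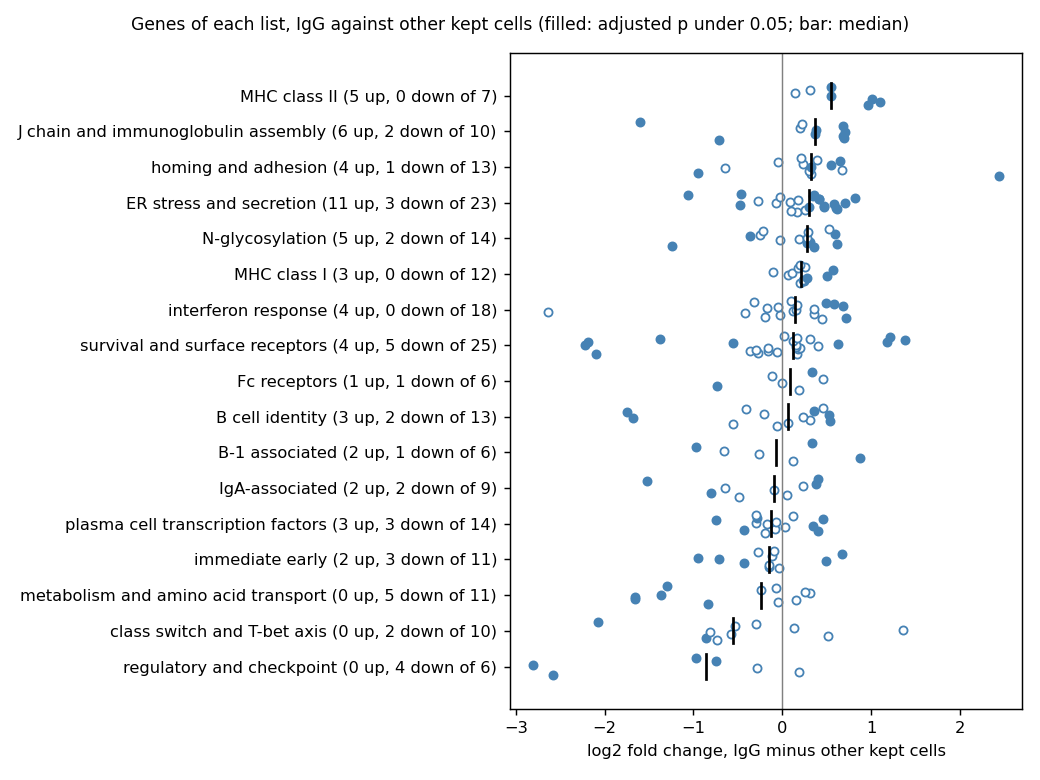
Each point is a tested gene of a list, placed by its log2 fold change of IgG against other kept cells, filled where the adjusted p was under 0.05, and the bar is the median of the list. The MHC class II list lies to the right with 5 of 7 genes called, and the regulatory and checkpoint list to the left with 4 of 6 called.

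The other kept cells were mostly IgM, so IgG was also set against IgM and against IgA cells separately, in a fit of all 3 classes. Both comparisons share the same IgG sums. Against IgM, 565 of 4969 genes passed (11.4%), 271 higher (5.45%) and 294 lower (5.92%). Without female bone marrow 354 passed and without female spleen 211. Cxcr3 (2.55), Pld4 (1.71) and Siglecg (1.83) were higher, and Cox6a2 (-3.85), Lag3 (-2.73), Bcl2 (-2.27) and Tnfrsf17 (-2.09) lower. MHC class II genes had 4 of 7 higher and none lower. Of 12 MHC class I genes only Psmb8 was called, as higher, so B2m and H2-T23 did not pass against IgM alone. Jchain no longer passed against IgM alone (-0.62, adjusted p = 0.0769), and Ccr10 did not pass (0.19, adjusted p = 0.798).

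Against IgA, 369 of 4969 genes passed (7.43%), 212 higher (4.27%) and 157 lower (3.16%), while without female bone marrow 178 passed and without female spleen 137. Of 13 tested homing and adhesion genes 3 were higher in IgG cells (Cxcr3, Cxcr4, Itgb2) and 4 lower (Ccr9, Ccr10, Klf2, Itgb7), with a median of -0.02. Ccr10, the receptor for mucosal chemokines, was at 42.5, 20.4, 12.5, 3.73, 28.0 and 40.8 CPM in IgG cells and 469, 421, 235, 257, 268 and 51.4 CPM in IgA cells (-3.98, SE 0.25, adjusted p = 6.34e-20). The integrin gene Itgb7 was at 138, 129, 64.7, 89.6, 84.0 and 81.6 CPM against 292, 323, 271, 498, 436 and 682 CPM (-1.96, adjusted p = 1.67e-12). The groups did not overlap for either gene, with male thymus the closest pair for Ccr10. Ccr9, the receptor that guides cells to the small intestine, fell by 4.07 (adjusted p = 5.17e-09). Runx2 was detected by 2 UMIs in the IgG cells and 103 in the IgA cells. For Itgb7 the IgG cells lay between the classes, since they were above IgM cells by 1.06.

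Genes higher in IgG than in IgA cells included Pld4, at 281, 265, 212, 276, 364 and 204 CPM against 8.46, 30.1, 31.4, 15.1, 67.0 and 12.9 CPM (3.28, adjusted p = 1.18e-15). Spon1, a secreted matrix protein gene, was at 260, 333, 133, 280, 476 and 459 CPM against 21.1, 52.6, 31.4, 30.2, 134 and 12.9 CPM (2.82, adjusted p = 1.64e-14). Bank1, a scaffold of B cell receptor signalling, was 3.35 higher, and Parm1 was detected by 54 UMIs in the IgG cells and 2 in the IgA cells. Of 12 MHC class I genes 7 were higher and none lower, and of 7 MHC class II genes 6 were higher and none lower. Without the library block H2-K1, H2-D1, H2-Q7, B2m, Psmb8 and Psmb9 lost their calls (adjusted p = 0.158 to 0.343), as did H2-Aa, H2-DMa and H2-Ob (0.151 to 0.171). Of 12 tested B cell identity genes Ms4a1 (1.16, adjusted p = 0.00578), Cd79b (0.72, adjusted p = 0.00113) and Cd37 (0.76, adjusted p = 0.000523) were higher than in IgA cells and Cd55 was lower. Ms4a1 lost its call without female bone marrow or female spleen (adjusted p = 0.082 and 0.286) and Cd79b without female bone marrow (0.0559), and none of the 3 passed without the library block (0.29, 0.188 and 0.0652). Their part in the MHC class II difference was not tested. Tnfrsf17 was lower than in IgA cells too (-2.63, adjusted p = 1.58e-16), as was Jchain (-1.05). Stt3b, Slc3a2, Slc7a5, Chac1, Ddit3, Herpud1, Blk, Pou2af1 and Irf8 were called lower against IgM cells but not against IgA cells.

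Within IgG cells the tissues were compared with sex as a covariate, on 1 female and 1 male sum per tissue. Of 3316 genes tested, 3 passed between spleen and bone marrow (0.0905%), 1 higher in spleen (0.0302%) and 2 lower (0.0603%). Between thymus and bone marrow 15 passed (0.452%), 11 higher in thymus (0.332%) and 4 lower (0.121%), and between thymus and spleen 25 (0.754%), 20 higher in thymus (0.603%) and 5 lower (0.151%). DESeq2 called 0, 4 and 6. These counts were unstable: without cells whose barcode occurs in another library they were 2, 324 and 375. Without male thymus they were 5, 3 and 1, without female bone marrow 2, 7 and 8, without male bone marrow 2, 1 and 5, without female spleen 6, 38 and 17, without male spleen 8, 34 and 189, and without female thymus 5, 15 and 15. Slpi, a secreted protease inhibitor on chromosome 2 (164354070 to 164389095, minus strand), separated the tissues. Female and male spleen had 22030 and 27950 CPM, bone marrow 8039 and 5267 CPM, and thymus 260 and 1178 CPM. The thymus to spleen difference of -5.07 (SE 0.54, adjusted p = 4.44e-12) passed in every alternative that tested it. The thymus to bone marrow difference of -3.22 was lost without female bone marrow, male bone marrow or female thymus (adjusted p = 0.588, 0.242 and 0.77), and spleen against bone marrow did not pass (1.85, adjusted p = 0.0714).

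In the other kept cells Slpi spanned a narrower range, from 1694 to 4385 CPM. CPM are scaled within each fit, so IgG values given beside other cells differ somewhat from those of the fit of IgG cells alone. Set against the other cells of the same library, Slpi in IgG cells was higher in spleen (22560 against 2973 CPM in female, 24900 against 1694 CPM in male), higher in female bone marrow (7438 against 2655 CPM), close to equal in male bone marrow (4805 against 4385 CPM) and lower in thymus (193 against 1750 CPM in female, 1010 against 1968 CPM in male). A test of whether the IgG to other difference depended on the tissue gave 25 genes of 7150 (0.35%), and Slpi led them with an adjusted p of 3.07e-110. Without female bone marrow, male bone marrow, female spleen or male spleen the count was 14, 11, 16 and 12. Its overall difference of 1.17 therefore joins opposite directions, and without female spleen it no longer passed (0.69, adjusted p = 0.126).

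Ly6c2, which encodes a surface protein of the Ly6 family, was higher in thymus IgG cells. Its IgG to other difference was not called as depending on the tissue, so the rise is not shown to be particular to IgG cells. Female and male thymus had 13400 and 21250 CPM, spleen 2318 and 1670 CPM, and bone marrow 3065 and 1263 CPM (thymus to spleen 3.19, adjusted p = 4.85e-07). It has a near-identical neighbour in Ly6c1, so its reads are uncertain. The call was lost without male thymus (2.05, adjusted p = 0.254) or male bone marrow (2.91, adjusted p = 0.132). Lgals3bp, a secreted glycoprotein gene, was at 584 and 667 CPM in thymus and between 72.2 and 145 CPM elsewhere (thymus to spleen 2.65, adjusted p = 2.16e-06), and without male thymus its adjusted p was 0.22.

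The interferon-induced genes Isg15 and Ifi27l2a were carried by the male thymus library. Isg15 was at 1222 CPM there, on 25 IgG cells, and at 32.4 CPM in female thymus. Female and male spleen had 146 and 36.5 CPM, and bone marrow 22.3 and 28.9 CPM. Its thymus to spleen difference of 2.59 (adjusted p = 0.00219) turned to -2.32 without male thymus and to -0.25 without male spleen, and without male bone marrow its adjusted p was 0.128. Ifi27l2a was at 4055 CPM in male thymus and 1298 CPM in female thymus, while spleen had 869 and 195 CPM and bone marrow 318 and 123 CPM. Its IgG to other difference was not called as depending on the tissue, so this pattern is not shown to be particular to IgG cells. Without male thymus its thymus to spleen difference dropped from 2.68 to 0.42 (adjusted p = 0.761), and it was also lost without female bone marrow (0.0797) or male bone marrow (0.376).

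The metal-binding gene Mt1 was highest in bone marrow IgG cells, with 374 and 1407 CPM in the female and male library, while spleen had 149 and 60.8 CPM and thymus 32.4 and 11.1 CPM. Mt1 was highest in bone marrow among the other kept cells as well, by CPM scaled in the fit of both classes. There the female library had 299 CPM and the male one 894 CPM, while spleen reached 238 CPM and thymus 119 CPM at most. In IgG cells the spleen to bone marrow difference was -2.74 (adjusted p = 1.43e-05) and that of thymus -5.70 (adjusted p = 2.21e-08). Without male bone marrow neither passed (-1.21 with an adjusted p of 1, and -3.70 with an adjusted p of 0.242), and without male spleen the first did not (-1.37, adjusted p = 0.129). H2-Aa of IgG cells was called higher in thymus, at 3893 and 911 CPM, than in bone marrow (648 and 671 CPM, 1.58, adjusted p = 0.0483) and spleen (795 and 543 CPM, 1.63, adjusted p = 0.0248). The first call was lost when any 1 library of bone marrow or thymus was left out and the second when any 1 library but male spleen was, and without female thymus the differences were 0.57 and 0.52. Apoe (2.97) and Pgam2 (-2.33) were the other genes called between spleen and bone marrow. They rest on 154 and 95 UMIs, and both lost their calls without female bone marrow (adjusted p = 0.227 and 1), Apoe without male bone marrow (adjusted p = 1) and Pgam2 without female spleen (adjusted p = 0.838).

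**Figure D4:**
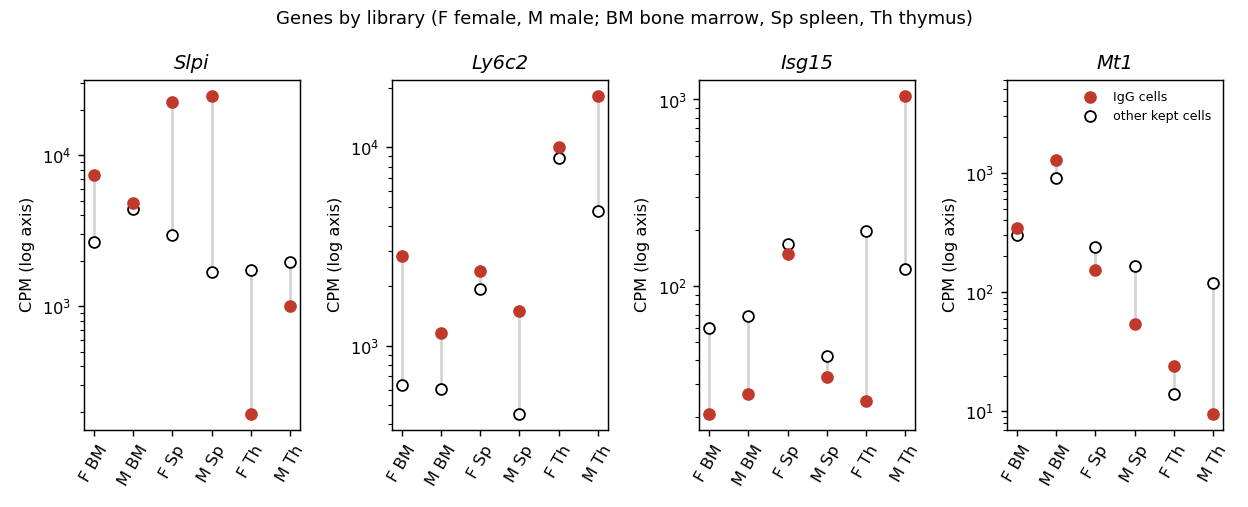
Each panel plots CPM on a log axis by library, filled points for IgG cells and open points for other kept cells. Slpi of IgG cells falls from male spleen, the highest, to female thymus, the lowest. Ly6c2 is highest in both thymus libraries, Isg15 of IgG cells is highest in male thymus and Mt1 in male bone marrow. The values are scaled in the fit of both classes.

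Between the sexes 5 of 3316 genes passed (0.151%), 2 higher in males (0.0603%) and 3 lower (0.0905%). Xist, Ddx3y and Eif2s3y were 3 of them. The others were Fos, an immediate early gene, at 581, 388 and 64.9 CPM in bone marrow, spleen and thymus of females against 130, 142 and 55.6 CPM in males (-1.63, adjusted p = 0.0154), and Ctsh, a lysosomal protease gene, at 235, 157 and 389 CPM against 86.6, 56.7 and 77.8 CPM (-1.65, adjusted p = 0.0161). Without female bone marrow Fos had an adjusted p of 0.996 and Ctsh of 0.315, and without male bone marrow they had 1 and 0.541. The count was 9 without female spleen, 8 without female thymus and 8 without male thymus. Ctsh was also lost without male spleen (0.0532), female thymus (0.152) or male thymus (0.202).

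No gene separated the IgG subclasses at an adjusted p of 0.05 in edgeR, or in DESeq2. Of 3175 genes tested (0% called), 32 had an unadjusted p under 0.05 in edgeR. Subclass sums of at least 10 cells entered this test, which left female thymus out. With 1 cell per clone 11 genes passed, and without male bone marrow, male spleen or male thymus 4, 2 and 4. The gene with the smallest p was Il4i1 (adjusted p = 0.106), an amino acid oxidase gene, at 1829 CPM in the Ighg3 cells of male spleen and at 0 to 9.81 CPM in the other sums.

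The VDJ contigs add clonal information. A clone was taken as the same heavy V gene, J gene and CDR3 nucleotides. Cells whose CDR3s differ at a single base thus count as separate clones, which can split a lineage and raise the number of clones. The 338 IgG cells with a contig fell into 223 clones, of which 180 held 1 IgG cell and 43 held at least 2, with 158 cells. Of the 223 clones, 26 also held IgM cells, 9 also IgA cells and 12 held at least 2 IgG subclasses, while 8 had IgG cells in at least 2 libraries, one of them only through a cell whose barcode occurs in another library and another (IGHV1-80, below) with more than 1 light chain. The CDR3 sequences of 5 clones are shown, the 3 with most IgG cells and 2 of those found in several libraries, chosen after their cells were counted. Capitals mark the longest run of at least 10 bases identical to a germline D segment.
IGHV1-4 IGHJ2: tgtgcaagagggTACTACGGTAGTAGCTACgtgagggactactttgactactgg
IGHV1-26 IGHJ4: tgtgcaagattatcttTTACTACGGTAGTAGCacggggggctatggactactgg
IGHV1-78 IGHJ2: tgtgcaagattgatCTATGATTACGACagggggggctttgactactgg
IGHV6-3 IGHJ2: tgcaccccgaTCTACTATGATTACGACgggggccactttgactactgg
IGHV1-80 IGHJ3: tgtgcaagaggggcttactgg
The capitals match Ighd1-1 over 18 and 16 bases in IGHV1-4 and IGHV1-26, and Ighd2-4 over 13 and 17 bases in IGHV1-78 and IGHV6-3. The IGHV1-80 CDR3 of 7 codons holds no such run.

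The IGHV1-4 clone was the largest, with 22 IgG cells, 16 in female bone marrow, 5 in female spleen and 1 in female thymus. All 22 were Ighg2b and all 22 used Igkv2-137, and 1 IgM cell had the same heavy chain. It made up 34.8% of the 46 IgG cells with a contig in female bone marrow, where it was the largest IgG clone. Of the 22 cells, 2 had a barcode found in another library, and the clone was present in 3 libraries without them. The IGHV1-26 clone held 18 cells of female spleen, 14 Ighg2b and 4 Ighg1, with 1 IgM and 3 IgA cells. The IGHV1-78 clone, with the lambda gene Iglv1, had 8 IgG cells of 3 subclasses in female spleen (4 Ighg2c, 2 Ighg1, 2 Ighg2b) beside 6 IgM and 10 IgA cells, so 1 heavy-chain sequence occurred with all 3 classes. The IGHV6-3 clone had 4 cells in male spleen and 1 in male thymus, all Ighg2b with Igkv3-12. The short IGHV1-80 CDR3 was found in 5 IgG cells of both sexes and in 28 IgM cells, with 2 light-chain genes among the IgG cells, so these cells cannot be 1 clone.

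IGHV1-26 was the most frequent heavy V gene of the IgG cells, in 32 of 338 (9.47%, against 3.97% of the other cells with a contig), spread over 13 clones, 18 of the cells being the female spleen clone above. Without the largest IGHV1-26 clone of each class the shares were 4.38 and 3.08%. IGHV1-4 followed with 31 cells (9.17% against 0.229%), 22 of which were the clone above. Without the largest clones, taken by identical CDR3, the shares were 2.85 and 0.115%. The IgG cells left included IGHV1-4 IGHJ2 Ighg2b cells of female bone marrow (2 and 2) and female spleen (1 and 1). Their CDR3s differed from that of the clone at few bases. Whether they are relatives of the clone was not tested, so the 2.85% may still hold its lineage. IGHV9-3, at 11.2% of the other cells and 2.96% of IgG cells, was inflated in the others by 1 clone of 226 cells, 220 of them IgM cells of male spleen, and without the largest clones the shares were 2.76 and 2.09%.

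Differences from the germline V gene are the mark of somatic hypermutation, which accompanies selection for affinity. In the IGHV1-4 clone 10 of the 22 cells matched the germline transcript over 285 V bases and 12 carried differences, giving 12 different V sequences in all and 32 substitutions of 26 kinds. A175G was found in 3 cells from 2 libraries and G230A in 2 cells from 2 libraries, with positions counted from 1 at the first base of the aligned framework 1 and the germline base first. Positions 137 to 236 are shown for the germline and for a cell of each of 3 tissues, with differences from the germline in capitals. Each is the cell of the clone with most differences in its library, and female thymus had 1 cell. The window was chosen to hold the most differences of these cells, so they are not typical of a tissue.
IGHV1-4 germline: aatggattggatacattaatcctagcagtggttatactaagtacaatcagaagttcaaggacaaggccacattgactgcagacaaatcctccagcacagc
female bone marrow cell: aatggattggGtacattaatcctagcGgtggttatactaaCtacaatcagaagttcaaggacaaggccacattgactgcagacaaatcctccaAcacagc
female spleen cell: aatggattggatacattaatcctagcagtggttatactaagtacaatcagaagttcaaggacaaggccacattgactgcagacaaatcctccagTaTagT
female thymus cell: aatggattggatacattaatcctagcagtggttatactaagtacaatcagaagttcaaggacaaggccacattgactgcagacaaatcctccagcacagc
The bone marrow cell had 4 differences in 285 bases on a contig of 645 UMIs, the spleen cell 4 on 143 UMIs, 3 of them in the window, and the thymus cell none on 107 UMIs. Within 1 clone and sex the cells thus ranged from germline to 4 differences.

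Over all cells the level of V differences was low. The median per IgG cell was 2 bases in female bone marrow, 4.5 in male bone marrow, 0 in female spleen, 1 in male spleen, 0 in female thymus and 0.5 in male thymus, against 0, 1, 0, 0, 0 and 0 in IgM cells, and the highest IgG value was 21. Cells with no difference made up 32.6, 13.3, 51.5, 44.8, 54.5 and 50% of IgG cells in that order and 50.8, 44.7, 57.8, 69.1, 63.0 and 63.3% of the other cells. The share was lower in IgG cells in 6 of 6 libraries, by 17.0 percentage points ± 9.62 (SD, n = 6), with an exact two-sided sign-flip p of 0.03125 and an adjusted p of 0.156 over 10 measures, or 0.188 over the 6 that the rule did not use. Against IgM cells alone the difference was -19.6 points. IgA cells with no difference made up 41.5% ± 10.4 and IgG cells 41.1% ± 15.7 (SD, n = 6), a difference of -0.339 points (exact p = 1), with IgG higher in 4 of 6 libraries. Contigs were found for 61.0% of IgG cells in female spleen but for 20.1% of IgM cells there, so the cells compared are not an even sample of each class.

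**Figure D5:**
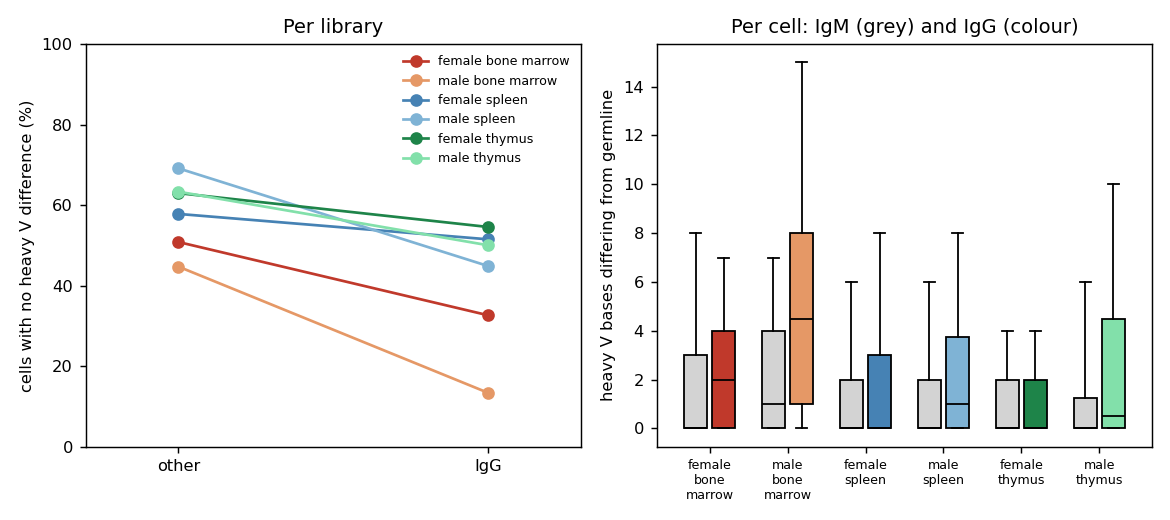
The left panel joins, for each library, the percentage of cells with no heavy V difference in other kept cells and in IgG cells, and the right panel plots the number of differing V bases per cell for IgM and IgG cells. The line of every library falls from other to IgG, and male bone marrow has the lowest IgG value at 13.3%.

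None of the 6 measures per library that the rule did not use passed an exact sign-flip test adjusted over all 10 measures computed (smallest adjusted p = 0.156, or 0.188 over these 6 alone, a family chosen after seeing the data). With 6 libraries an unadjusted p cannot go below 0.03125, so after either adjustment a single measure could not pass, and the failure says little. The mean heavy CDR3 was 14.8 codons ± 1.13 in IgG cells and 13.8 ± 0.330 in the others (SD, n = 6), longer in 5 of 6 libraries (exact p = 0.09375, adjusted p = 0.188). A lambda light chain led in 2.58% ± 1.84 of IgG cells and 4.87% ± 3.20 of the others (SD, n = 6), with no test, since the rule used the leading light chain. IGHV1 family genes were used by 63.1% ± 5.79 and 56.3% ± 11.8 (SD, n = 6; exact p = 0.125, adjusted p = 0.208). The median UMIs outside immunoglobulin genes were 3284 ± 560 and 2825 ± 645 (SD, n = 6), higher in IgG cells in 5 of 6 libraries, and the mitochondrial shares were 2.34 and 2.31%. The rule has thresholds on both, so they are given with no test. Ribosomal protein shares (3.79% and 3.70%) differed by less than their spread between libraries (exact p = 0.8125).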

How the data were processed

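Gene by barcode UMI counts of 10x Genomics 5' libraries, not normalized, were deposited by the authors; they were made with Cell Ranger 6.0.2 on mm10 (GRCm38), per the submitters' processing notes. The filtered matrices, with the barcodes the authors called as cells, were used. The VDJ tables hold the authors' assembled contigs with their UMI counts, read at a minimum of 3 UMIs per contig.

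Samples were grouped by their labels. The members, gene lists and tests were chosen with earlier results of these data known. Doublets were not called. At least 50% of light-chain V UMIs in 1 gene was required, and leaving out the 5% of cells with most UMIs was tried. UMI counts outside genes starting Igh, Igk or Igl and the 6 cell cycle genes were summed per library and class. They were filtered by filterByExpr, scaled by TMM and tested with edgeR 4.0.16 (R 4.3.3, quasi-likelihood F-test, library as block, Benjamini-Hochberg at 0.05), with DESeq2 1.42.0 as an alternative. The block pairs the IgG and other cells of the same library, so the pairing is that of the design. Sums of fewer than 10 cells were left out of the fits by class and subclass. Cell measures were compared by exact sign-flip tests over the 6 libraries (SciPy 1.17.1).

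Named genes were the 12 called genes of largest change in each direction with at least 30 UMIs and the same sign in at least 5 libraries, plus called members of the lists. Heavy V sequences of contigs were aligned to the GENCODE M21 germline transcripts of the same gene. Alternatives were another scaling, no filter, IgG of at least 90%, a leading light chain of at least 80%, at least 2000 UMIs, cells thinned to 1000 UMIs, and leaving out each library. Leaving out shared barcodes, keeping 1 cell per clone, and the measures of V differences were added after seeing the data. Keeping 1 cell per clone also left out every cell without a heavy-chain contig, so its counts do not show the effect of clones alone. Raw barcode matrices were not used here.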

Additional observations from a re-analysis of the deposited data

Results flagged for a closer look

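For 25 genes the difference between IgG and other kept cells depended on the tissue, by edgeR's test of the class and tissue terms with Benjamini-Hochberg adjustment, and the 12 with the smallest p are given. Slpi led with an adjusted p of 3.07e-110, with the values by library given above. Isg15 (adjusted p = 1.5e-18) was at 1048 CPM in IgG cells against 123 CPM in the others in male thymus and lower in IgG cells in the other 5 libraries, and without male thymus the adjusted p was 0.173. Ly6d (6.96e-17) was higher in IgG cells in thymus (967 against 520 CPM in female, 1495 against 561 CPM in male) and lower in spleen (966 against 1761 CPM in female, 455 against 824 CPM in male). Ly6k (2.45e-08) was at 527 and 454 CPM against 250 and 116 CPM in bone marrow and at 0 against 108 CPM in male thymus.

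Mt1 (1.38e-06) was at 1284 against 894 CPM in male bone marrow and 54.2 against 164 CPM in male spleen, and without male bone marrow its adjusted p was 0.0751. Pgam2 (2.94e-06) was at 181 against 25.7 CPM in female bone marrow, and without that library its adjusted p was 0.999, without female spleen 0.139. Il4i1 (6.43e-05) was at 260 CPM in the IgG cells of male spleen and between 0 and 3.34 CPM in the IgG cells of the others, and without male spleen its adjusted p was 1, without female bone marrow 0.274. Jchain (0.000502) was lower in IgG cells except in male spleen, and without female bone marrow, male bone marrow or male spleen its adjusted p was 0.412, 0.814 and 1.

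Kctd12 (0.000223), Rhob (0.000223), Scd2 (0.000297) and Serpina3g (0.000505) were higher in IgG cells than in the others in male thymus, at 210 against 60.8, 343 against 94.2, 324 against 108 and 248 against 202 CPM. Without male thymus their adjusted p-values were 0.434, 0.762, 0.855 and 0.663, and without female spleen Scd2 and Serpina3g had 0.0713 each.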

How the results depend on the processing

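Between IgG and other cells 837 genes were called, and the separate fits called 405 with 1 cell per clone (386 of them among the 837), 447 by DESeq2, 319 at IgG of at least 90% (240 among the 837), 125 with no replicate block, 213 after thinning to 1000 UMIs, 549 without shared barcodes and 554 without the 5% of cells with most UMIs, and 396 to 942 with a library left out. Against IgM the count went from 565 to 200 at 90%, 115 with no block, 149 thinned and 347 at a light chain of 80%, and 211 to 747 with a library left out. Against IgA it went from 369 to 60 with no block, 101 thinned and 140 at a light chain of 80%, and 137 to 543 with a library left out. The thinned cells hold fewer UMIs, and the other smaller sets fewer cells. The set of 1 cell per clone also lacks every cell without a heavy-chain contig.

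Within IgG cells, spleen against bone marrow (3) gave 0 by DESeq2, 5 at 90%, 5 with no filter, 0 thinned and 1 without top cells, and 2 to 8 with a library left out. Thymus against bone marrow (15) gave 4, 9 at 2000 UMIs, 8 thinned, 324 without shared barcodes and 85 without top cells, and 1 to 38. Thymus against spleen (25) gave 6 by DESeq2, 14 at 90%, 6 at 2000 UMIs, 9 with no filter, 6 thinned, 46 at a light chain of 80%, 375 without shared barcodes and 45 without top cells, and 1 to 189. The sexes (5) gave 3 with 1 cell per clone, 1 by DESeq2, 3 at 90%, 1 thinned, 3 at 80% and 12 without shared barcodes, and 4 to 9. The difference by tissue (25) gave 12, 4, 15, 1 and 16 under the first 5 of these, and 11 to 24. Subclasses (0) gave 11 with 1 cell per clone, 8 at 2000 UMIs, 5 with no filter, 6 at 80% and 1 without shared barcodes, and 0 to 4; no fit was possible at 90%. The cause was not tested.

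At 90% the median IgG share fell from 9.46 to 2.10%, and it was 6.96 to 11.96% with a library left out. The immunoglobulin share was 3.01 to 4.12 points higher with a library left out but -5.75 against IgA alone, and the share with no V difference was -19.1 to -14.1 with a library left out but -0.339 against IgA alone. These signs turned: at 90% Rpn1 (-0.067), Stt3a (-0.071) and Fcer1g (0.0057), and against IgM Pou2f2 (-0.050) and Fcer1g (0.089); thinned, Cd24a (-0.0076) and Ero1lb (-0.050); Isg15 of thymus without male thymus against bone marrow (-0.44 to 6.48 with a library left out) and spleen (-2.32 to 4.90), and without male spleen (-0.25); Serpina3g (-0.021) and Fcer1g (-0.38) without shared barcodes, and Fcer1g (-0.26) without top cells, between thymus and spleen. Uncalled measures also turned: UMIs outside immunoglobulin genes (-434 at 80%, -14.7 with 1 cell per clone), the mitochondrial share (-0.724 at 90%, -0.214 at 2000 UMIs, -0.0228 without shared barcodes, -0.0345 to 0.113 with a library left out, under 0 without female bone marrow, -0.00417, or male thymus), the ribosomal share (-3.60 at 80%, -0.0451 at 2000 UMIs, -0.0142 without top cells, -0.0598 without shared barcodes, -1.39 with 1 cell per clone, -0.202 against IgM, -1.08 against IgA, -0.127 to 0.254 with a library left out, under 0 without male bone marrow or female spleen, -0.118), clones of 2 or more (2.23 with 1 cell per clone, 8.55 against IgA, -9.27 to 2.18 with a library left out, above 0 without female thymus), IGHV1 (-0.961 against IgA) and V bases (-0.352 against IgA). Of 112 genes named against other cells, 35 passed in each alternative that tested them. The 11 IgG cells of female thymus limit every thymus value.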
